A study of Mus musculus with 16 samples.

Results

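Thyroid glands of mice with and without follicular *Glis3* were examined for the 10 genes that drive and brake the G1 phase of the cell cycle. They were the D-type cyclins *Ccnd1*, *Ccnd2* and *Ccnd3*, the E-type cyclins *Ccne1* and *Ccne2*, the kinases *Cdk4* and *Cdk6*, and the Cip/Kip inhibitors *Cdkn1a*, *Cdkn1b* and *Cdkn1c*. The genes were chosen by name as the members of these 4 families, 10 of the 25611 entries of the gene table, and all 10 were among the 16630 genes tested. Bulk RNA from whole thyroids of 16 female mice, 4 in each group, had been sequenced and read pairs counted per gene. All mice were 4 weeks old (1 month in the labels), of strain C57BL/6, and had been weaned at 3 weeks. WT(ND) mice carried the genotype WT and were kept on NIH-31, the normal diet (ND). WT(LID) mice were WT and received the low-iodine diet TD.95125 (LID) for 6 days. The mice named *Glis3*-Pax8Cre(ND) and those named *Glis3*-Pax8Cre(LID) carried B6;129-Glis3<tm2Amj> together with Pax8<tm1.1(cre)Mbu>, and received ND or LID in the same way. The comparisons asked how the gland responds to iodine shortage and how that response differs when GLIS3 function is lost.

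Progression through G1 depends on D-type cyclins, which join CDK4 or CDK6 and phosphorylate the retinoblastoma protein (RB), and on E-type cyclins, which join CDK2 and complete that phosphorylation so that E2F factors can switch on S-phase genes. The Cip/Kip proteins p21, p27 and p57, encoded by *Cdkn1a*, *Cdkn1b* and *Cdkn1c*, bind these complexes and restrain CDK2. Thyrotropin (TSH), together with insulin and insulin-like growth factors, regulates how thyroid follicular cells proliferate.

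*Glis3* encodes a zinc finger transcription factor, and the Pax8-driven Cre deletes its exon 5 in follicular cells, while the other cells of the gland keep it. *Glis3* levels, as read pairs of the gene scaled to library size by TMM (CPM), were 79.2, 85.8, 81.8 and 45.2 in the 4 WT(ND) mice and 105, 93.0, 101 and 85.8 in the 4 *Glis3*-Pax8Cre(ND) mice. They were 125, 174, 165 and 161 in the WT(LID) mice and 150.3, 119.5, 204 and 185 in the *Glis3*-Pax8Cre(LID) mice. The ND groups lay side by side with no overlap, the LID groups overlapped, and the log2 fold change between genotypes was 0.40 (adjusted p = 0.157) on ND and 0.08 (adjusted p = 0.81) on LID. All tests are the quasi-likelihood test of edgeR, and p was adjusted over all genes tested by the Benjamini-Hochberg method. Counts over the whole gene do not measure exon 5, so these levels check no genotype. On LID the level rose in WT mice by 1.10 (adjusted p = 0.000332) and in *Glis3*-Pax8Cre mice by 0.78 (adjusted p = 0.00824), the latter 0.67 (adjusted p = 0.0684) with 5 mice of high *Rag1*, described below, left out.

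The counted read pairs numbered 73983945, 63894808, 68146516 and 461077969 in the WT(ND) mice and 13892352, 156548225, 53110024 and 48886591 in the *Glis3*-Pax8Cre(ND) mice. They numbered 82374267, 81559012, 63122523 and 70180349 in the WT(LID) mice and 75933602, 60320453, 85741075 and 55451647 in the *Glis3*-Pax8Cre(LID) mice. A count of 3 corresponded to between 0.00651 and 0.216 CPM in these libraries, so that every member, the lowest of which measured 1.598 CPM (*Ccne1* in WT(ND) replicate 1), lay above that level in all 16 mice.

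In 2 libraries, called below the libraries that stood apart, several levels lay far from the rest of the group. WT(ND) replicate 4 did so too, in *Ccnd1* (120.3 CPM) and *Ccne1* (2.82 CPM). The *Glis3* level of that library, 45.2 CPM, was the lowest of its group. It was left out singly but is not among those 2. *Glis3*-Pax8Cre(ND) replicate 4 had the highest *Ccnd3*, *Ccne1*, *Ccne2*, *Cdk6* and *Cdkn1b* levels of its group. The same library had the most RNA of the thymocyte list, a set of 12 T-cell precursor genes. Their summed level was 12.4, 14.9, 14.0 and 3180 CPM in the 4 *Glis3*-Pax8Cre(ND) mice and 187, 51.9, 10.8 and 9.67 CPM in the 4 WT(ND) mice. It was 5.15, 5.05, 262 and 5.17 CPM in the WT(LID) mice and 8.73, 9.21, 8.66 and 394 CPM in the *Glis3*-Pax8Cre(LID) mice. *Rag1*, which encodes a recombinase of developing lymphocytes, was the most abundant of the 12 in *Glis3*-Pax8Cre(ND) replicate 4, at 1120 CPM, and was over 5 CPM in 5 mice in all. It also led the list in WT(ND) replicate 1, WT(LID) replicate 3 and *Glis3*-Pax8Cre(LID) replicate 4, while *Lck* or *Cd4* led in the other 12 mice. The 5 mice over 5 CPM were *Glis3*-Pax8Cre(ND) replicate 4, WT(ND) replicates 1 and 2 (61 and 6.38 CPM), WT(LID) replicate 3 and *Glis3*-Pax8Cre(LID) replicate 4. Fits without these 5 mice hold fewer mice in every group, and fewest in WT(ND). Of the 12 genes, 0 were at 0 in *Glis3*-Pax8Cre(ND) replicate 4 and in the other 4 of these 5 mice, and at most 2 in the remaining ones. In no comparison did edgeR call any of the 12, with 1 at unadjusted p under 0.05 (*Glis3*-Pax8Cre(ND) against WT(ND)) and 0 called by DESeq2. The list median between genotypes on ND was 3.59. Because most of this RNA lay in few mice of a group, the lack of calls does not show equal levels between groups. The part of this RNA in the results was not tested.

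WT(ND) replicate 3 stood apart in *Cdk6*, at 21.5 CPM where the other 3 mice of its group had 66.4, 59.7 and 66.0 CPM. In the same library *Pax8*, a follicular transcription factor gene, measured 996 CPM, against 397, 374 and 385 CPM in the others of its group and 958, 989, 944 and 643 CPM in the *Glis3*-Pax8Cre(ND) mice. *Slc5a5*, the sodium iodide symporter gene, measured 81.8 CPM in that library and 182, 187 and 132 CPM in the rest of the group, against 11.0, 8.43, 9.66 and 15.8 CPM in the *Glis3*-Pax8Cre(ND) mice. Each library was placed between the genotypes of its diet, over the genes that a fit without that library called at over 2-fold. WT(ND) replicate 3 lay a median of 0.46 of the way to the *Glis3*-Pax8Cre(ND) mice over 1344 genes and was nearer to them in 45.6% of these. The same share was 8.28%, 3.07% and 4.84% for WT(ND) replicates 1, 2 and 4. It was between 21.2% and 29.3% in the *Glis3*-Pax8Cre(ND) mice, whose distance was taken to a WT(ND) mean that holds replicate 3. On LID it was between 4.98% and 9.81% in the *Glis3*-Pax8Cre(LID) mice and between 2.75% and 5.95% in the WT(LID) mice. Whether the WT label of this library holds, and why the library lay between the genotypes, was not tested. It is kept in WT(ND) by its label. Without it 2 members were called between the ND genotypes, 7 for diet in WT and 2 in the interaction. Calls of the 10 genes that change on leaving out either library are given with and without it.

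**Figure D1:**
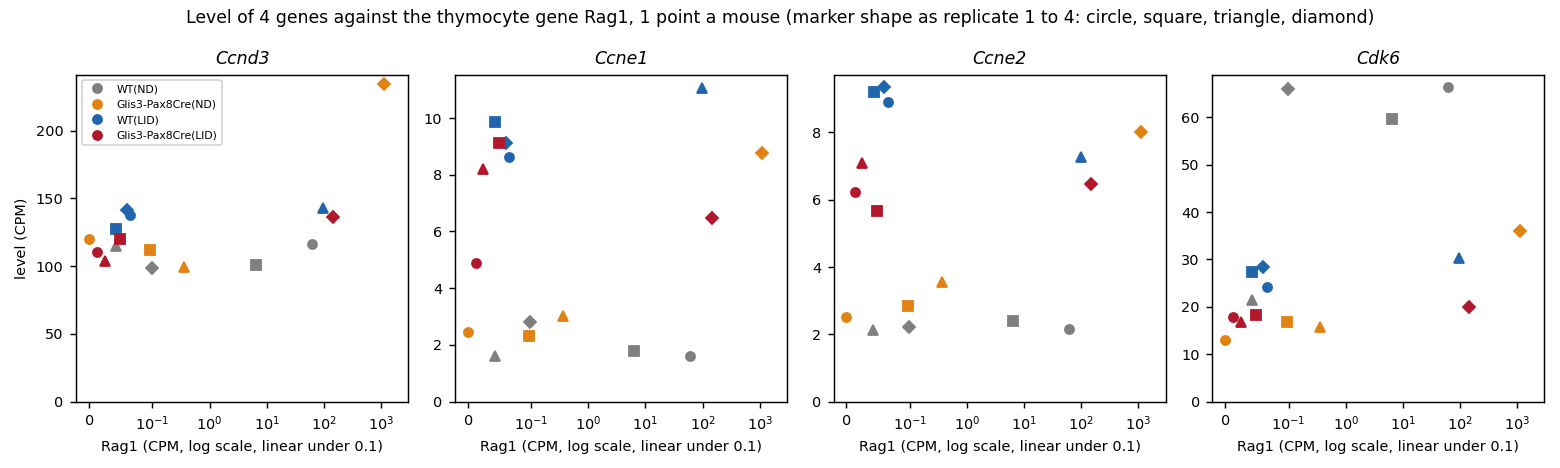
Levels of *Ccnd3*, *Ccne1*, *Ccne2* and *Cdk6* in CPM (vertical axes) against the *Rag1* level in CPM (horizontal axes, log scale, linear under 0.1), with 1 point per mouse, coloured by group and shaped by replicate. Glis3-Pax8Cre(ND) replicate 4, at 1120 CPM of *Rag1*, had the highest level of its group in all 4 plots. WT(LID) replicate 3, at 97.4 CPM, was the highest of its group in *Ccnd3*, *Ccne1* and *Cdk6* and the lowest in *Ccne2*, and Glis3-Pax8Cre(LID) replicate 4, at 145 CPM, was the highest of its group in *Ccnd3* and *Cdk6*.

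By edgeR's test for any difference among the 4 groups, 9 of the 10 genes passed an adjusted p under 0.05, where 61.4% of all genes tested did. *Ccnd3* was the exception (adjusted p = 0.26). In the response of WT mice to LID, 4 of the 10 rose and 3 fell, beside 20.9% and 20.8% of all genes. The genotypes compared on LID gave 2 higher and 2 lower in the *Glis3*-Pax8Cre mice, beside 14.9% and 15.4% of all genes, a share near the background. On ND the genotypes gave 1 higher and 1 lower, beside 10.3% and 9.25%, again near the background. In *Glis3*-Pax8Cre mice the diet raised 3 of the 10, beside 13.1% of all genes. It lowered 0 by edgeR, beside 12.3% of all genes, with 0 at unadjusted p under 0.05 and 0 by DESeq2. The test of whether the diet response differed between genotypes (the interaction) called 1 with a more positive and 2 with a more negative response in *Glis3*-Pax8Cre mice, beside 4.43% and 7.41%. Without *Glis3*-Pax8Cre(ND) replicate 4 the diet raised 5 genes in *Glis3*-Pax8Cre mice. The ND comparison kept 1 call without WT(ND) replicate 1 or 2, and the interaction 1 without *Glis3*-Pax8Cre(LID) replicate 1 or 2. The 2 diet comparisons and the 2 genotype comparisons share mice, so that their values are set side by side and not counted as separate support. Each value below comes from whole glands, in which fewer cells of a type and less RNA per cell cannot be told apart.

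**Figure D2:**
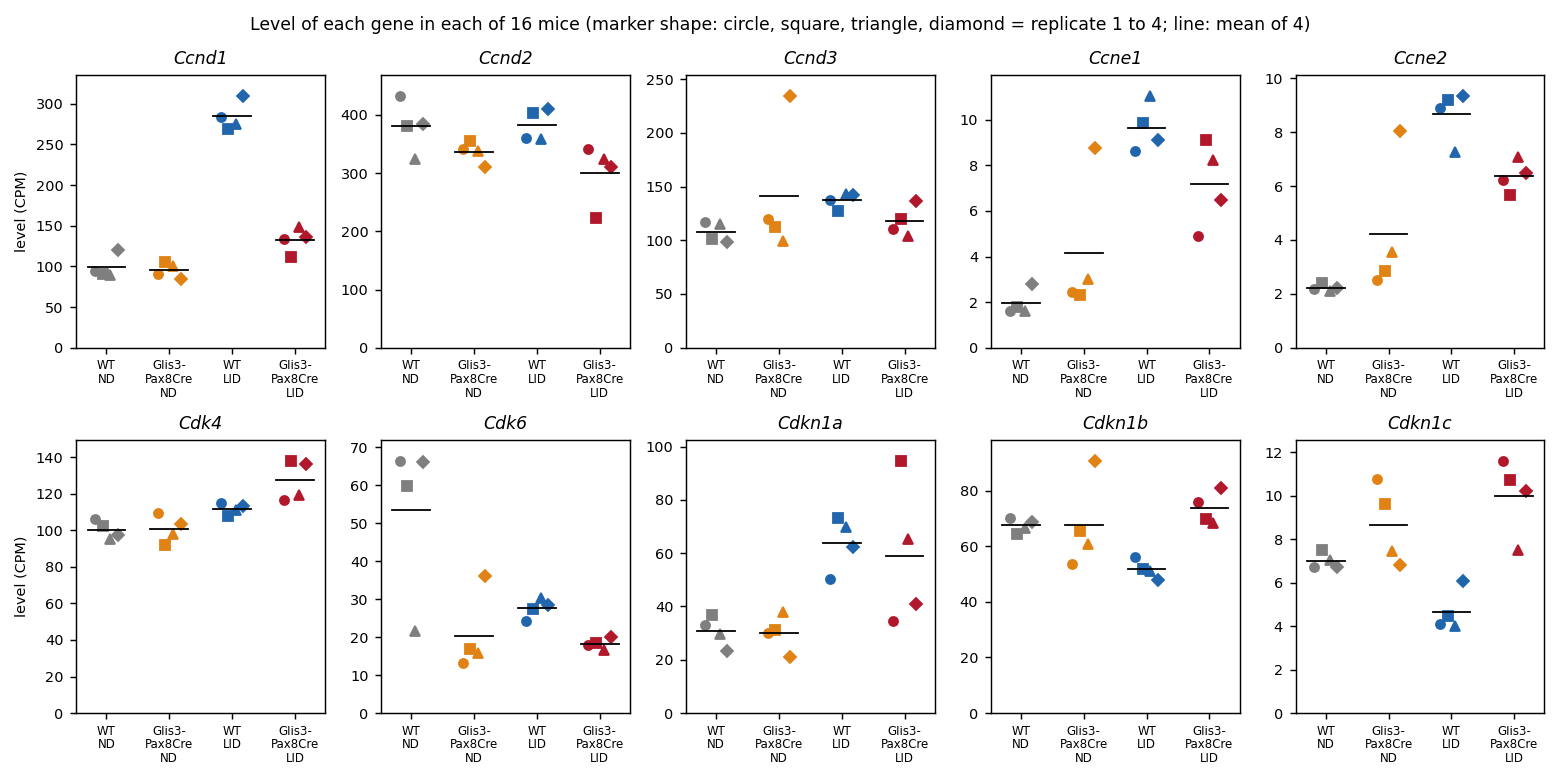
Level of each of the 10 genes in CPM (vertical axes, from 0) in each of the 16 mice, by group, with marker shapes for replicates 1 to 4 and a line at the mean of 4 mice. The 4 WT(LID) mice lay above all others in *Ccnd1*, and 3 of 4 WT(ND) mice lay above all others in *Cdk6*.

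*Ccnd1* encodes cyclin D1, the D-type cyclin most often induced by mitogens, and lies at chr7:144929931-144939925 in mm10, minus strand. Its level was 94.1, 90.8, 90.0 and 120.3 CPM in the WT(ND) mice and 90.8, 106, 101 and 84.6 CPM in the *Glis3*-Pax8Cre(ND) mice. On LID it was 284, 269, 275 and 310.1 CPM in the WT(LID) mice and 133, 112, 149 and 136 CPM in the *Glis3*-Pax8Cre(LID) mice. Every WT(LID) mouse was above the other 12 mice, the *Glis3*-Pax8Cre(LID) mice lay above the *Glis3*-Pax8Cre(ND) mice without overlap, and the ND groups overlapped. LID raised *Ccnd1* from 98.8 ± 14.5 to 284 ± 18.1 CPM in WT mice (mean ± SD, n = 4), a log2 fold change of 1.52 ± 0.112 (SE; adjusted p = 9.95e-08). The rise in *Glis3*-Pax8Cre mice was from 95.4 ± 9.47 to 133 ± 15.5 CPM, by 0.47 ± 0.111 (adjusted p = 0.00598). The diet response was thus smaller in *Glis3*-Pax8Cre mice, with an interaction of -1.05 ± 0.156 (adjusted p = 0.000433). On LID *Ccnd1* was lower in *Glis3*-Pax8Cre than in WT mice, at -1.10 ± 0.111 (adjusted p = 3.65e-06), and the difference on ND was -0.05 (adjusted p = 0.79). These 4 calls held in every alternative tried, 27 for each pair of groups and 25 for the interaction.

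*Ccnd2* encodes cyclin D2 and lies at chr6:127125709-127151048 in mm10, minus strand. Its level was 433, 381, 325 and 385 CPM in the WT(ND) mice and 341, 356, 338 and 309.9 CPM in the *Glis3*-Pax8Cre(ND) mice. On LID it was 359.7, 402, 358 and 409.5 CPM in the WT(LID) mice and 341, 223, 324 and 310.4 CPM in the *Glis3*-Pax8Cre(LID) mice. The 4 *Glis3*-Pax8Cre(LID) mice lay below the 4 WT(LID) mice, with replicate 2 the lowest of all 16, and the ND groups overlapped. On LID *Ccnd2* was lower in *Glis3*-Pax8Cre than in WT mice, at -0.35 ± 0.120 on the log2 scale (adjusted p = 0.0359), and on ND the difference was -0.18 (adjusted p = 0.306). The interaction was -0.17 (adjusted p = 0.567), so a difference between the diets was not shown. LID itself gave 0.01 (adjusted p = 0.979) in WT and -0.17 (adjusted p = 0.325) in *Glis3*-Pax8Cre mice. The LID genotype call was lost on leaving out any 1 of 4 libraries. The value was -0.33 (adjusted p = 0.0865) without WT(LID) replicate 2 and -0.32 (adjusted p = 0.0932) without WT(LID) replicate 4. It was -0.23 (adjusted p = 0.0836) without *Glis3*-Pax8Cre(LID) replicate 2 and -0.37 (adjusted p = 0.0573) without *Glis3*-Pax8Cre(LID) replicate 4. With library size alone as the scale it was -0.21 (adjusted p = 0.177). The call was lost too with only the 8 mice, at -0.35 (adjusted p = 0.0582), with a replicate block on them, at -0.37 (adjusted p = 0.0866), and with the 5 mice over 5 CPM of *Rag1* left out, at -0.40 (adjusted p = 0.0668). It passed in 19 of 27 alternatives. Over the 27 alternatives the value ran from -0.42 to -0.21 and the adjusted p from 0.017 to 0.177.

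*Ccnd3*, encoding cyclin D3, lies at chr17:47505051-47599688 in mm10, plus strand. It ranged from 98.5 to 143 CPM in 15 of the mice and reached 235 CPM in *Glis3*-Pax8Cre(ND) replicate 4. No comparison called it, and the largest of its 4 pairwise values was 0.39 (adjusted p = 0.188) between genotypes on ND. That value was, with *Glis3*-Pax8Cre(ND) replicate 4 left out, 0.04 (adjusted p = 0.808). The WT diet response of 0.35 (adjusted p = 0.182) became 0.36 (adjusted p = 0.00435) without that library, which passed the test. It passed in 5 of 27 alternatives, the others being the fits to only the 8 mice, without and with a replicate block, and those without both libraries or without the 5 mice over 5 CPM of *Rag1*. Its diet value in *Glis3*-Pax8Cre mice turned from -0.26 (adjusted p = 0.358) to 0.09 (adjusted p = 0.554) without it. Over the 27 alternatives of the WT diet response the adjusted p ran from 0.00327 to 0.508. Counts were made without regard to strand, and *Ccnd1*, *Ccnd2*, *Ccnd3* and *Ccne2* overlap entries of the opposite strand (*Oraov1*, *9330179D12Rik*, *Bysl* and *Ints8*).

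*Ccne1* encodes cyclin E1 and lies at chr7:38097984-38107490 in mm10, minus strand. Its promoter is shown because the E-type cyclins had the largest diet responses of the 10 genes in WT mice. The RefSeq promoter table (GRCm38.p6, 250 bases before to 50 bases after each start) held 8 windows for 6 of the 10 genes, and none for *Ccnd1*, *Ccnd2*, *Ccne2* or *Cdkn1c*. Capitals mark 4 GC boxes, the letters GGGCGG on either strand, in the window chr7:38107441-38107740, minus strand, GRCm38.p6.
Ccne1: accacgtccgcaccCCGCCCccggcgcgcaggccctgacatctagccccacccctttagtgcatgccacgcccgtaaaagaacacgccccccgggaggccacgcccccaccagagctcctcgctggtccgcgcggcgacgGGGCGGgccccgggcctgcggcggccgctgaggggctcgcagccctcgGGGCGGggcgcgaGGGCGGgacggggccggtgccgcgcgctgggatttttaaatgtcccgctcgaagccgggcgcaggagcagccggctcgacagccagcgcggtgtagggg
A GC box was found in 35.7% of the 32851 promoters of this table and 4 or more in 5.49%.

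*Ccne1* measured 1.598, 1.79, 1.61 and 2.82 CPM in the WT(ND) mice and 2.45, 2.33, 3.01 and 8.78 CPM in the *Glis3*-Pax8Cre(ND) mice. The LID groups had 8.62, 9.84, 11.1 and 9.11 CPM (WT(LID)) and 4.88, 9.13, 8.22 and 6.47 CPM (*Glis3*-Pax8Cre(LID)). All WT(LID) mice lay far above all WT(ND) mice, *Glis3*-Pax8Cre(ND) replicate 4 lay among the LID mice, and the LID groups overlapped. LID raised *Ccne1* in WT mice from 1.95 ± 0.582 to 9.65 ± 1.06 CPM (n = 4), by 2.30 ± 0.378 on the log2 scale (adjusted p = 0.000213), and this held in all 27 alternatives. The *Glis3*-Pax8Cre value was 0.78 ± 0.365 (adjusted p = 0.127), and without *Glis3*-Pax8Cre(ND) replicate 4 it was 1.46 (adjusted p = 0.000406), which passed the test. The ND genotype difference was 1.08 (adjusted p = 0.0512) and the LID genotype difference -0.43 (adjusted p = 0.411). The ND value was, with *Glis3*-Pax8Cre(ND) replicate 4 left out, 0.40 (adjusted p = 0.243). It passed the test without WT(ND) replicate 4, at 1.33 (adjusted p = 0.0424), without *Glis3*-Pax8Cre(ND) replicate 1, at 1.25 (adjusted p = 0.033), and without *Glis3*-Pax8Cre(ND) replicate 2, at 1.29 (adjusted p = 0.0258). It also passed by DESeq2, with RLE factors, with library size alone and with at least 10 counts in every mouse, 7 of 27 alternatives in all. The interaction of -1.51 (adjusted p = 0.0708) did not pass the test, and passed it without WT(ND) replicate 4 (-1.76), *Glis3*-Pax8Cre(ND) replicate 1 (-1.68) or *Glis3*-Pax8Cre(ND) replicate 2 (-1.72), and by DESeq2 (-1.52). The LID genotype difference passed in 1 of 27 alternatives, with a replicate block on the 8 mice, at -0.47 (adjusted p = 0.0335). Adjusted p over the alternatives ran from 0.0131 to 0.718 for the ND genotype difference, from 0.000349 to 0.286 for the *Glis3*-Pax8Cre diet response and from 0.0193 to 0.476 for the interaction.

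*Ccne2*, which encodes cyclin E2 and lies at chr4:11191351-11204779 in mm10, plus strand, measured 2.17, 2.39, 2.12 and 2.22 CPM in the WT(ND) mice and 2.51, 2.83, 3.57 and 8.03 CPM in the *Glis3*-Pax8Cre(ND) mice. On LID it measured 8.90, 9.20, 7.28 and 9.36 CPM in the WT(LID) mice and 6.23, 5.68, 7.09 and 6.47 CPM in the *Glis3*-Pax8Cre(LID) mice. Neither pair of genotypes overlapped: the *Glis3*-Pax8Cre(ND) mice lay above the WT(ND) mice, with replicate 4 well above the rest, and the *Glis3*-Pax8Cre(LID) mice lay below the WT(LID) mice. LID raised *Ccne2* in WT mice from 2.23 ± 0.118 to 8.69 ± 0.956 CPM, a log2 fold change of 1.96 ± 0.277 (adjusted p = 4.97e-05) that held in all 27 alternatives. The diet value of *Ccne2* in *Glis3*-Pax8Cre mice was 0.58 ± 0.269 (adjusted p = 0.126). The interaction was -1.39 ± 0.380 (adjusted p = 0.0268). Between genotypes *Ccne2* was higher by 0.94 ± 0.272 on ND (adjusted p = 0.0254), and the LID value was -0.45 (adjusted p = 0.229).

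The *Ccne2* results differed when *Glis3*-Pax8Cre(ND) replicate 4 was left out. Without it the ND genotype difference was 0.43 (adjusted p = 0.0356), the LID genotype difference -0.46 (adjusted p = 0.00873), the *Glis3*-Pax8Cre diet response 1.08 (adjusted p = 4.66e-05) and the interaction -0.89 (adjusted p = 0.00428), all 4 past the test. The ND call was lost without WT(ND) replicate 1, at 0.94 (adjusted p = 0.0581), replicate 2, at 0.97 (adjusted p = 0.0503), or replicate 4, at 0.94 (adjusted p = 0.0589). It was also lost with both libraries that stood apart left out, at 0.41 (adjusted p = 0.0539), and with the 5 mice over 5 CPM of *Rag1* left out, at 0.47 (adjusted p = 0.132). The fits to only the 8 mice lost it as well, at 0.96 (adjusted p = 0.12) and, with a replicate block, 0.79 (adjusted p = 0.202), so that it held in 20 of 27 alternatives. The LID genotype difference passed in 5 of 27. The interaction missed the threshold without WT(LID) replicate 4, at -1.35 (adjusted p = 0.0549), *Glis3*-Pax8Cre(LID) replicate 1, at -1.37 (adjusted p = 0.050), or *Glis3*-Pax8Cre(LID) replicate 2, at -1.33 (adjusted p = 0.0502). Over the alternatives the adjusted p of *Ccne2* ran from 0.00353 to 0.202 for the ND genotypes, 0.00873 to 0.42 for the LID genotypes, 4.66e-05 to 0.296 for the *Glis3*-Pax8Cre diet response and 0.00273 to 0.0549 for the interaction.

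*Cdk4* encodes the main partner kinase of the D-type cyclins and lies at chr10:127063535-127067288 in mm10, plus strand. Its promoter is shown because *Cdk4* was the steadiest of the 10 genes in level and its window was one of the few with repeated E-boxes. Capitals mark 4 matches to the E-box CACGTG, the same on both strands, in the window chr10:127063285-127063584, plus strand, GRCm38.p6.
Cdk4: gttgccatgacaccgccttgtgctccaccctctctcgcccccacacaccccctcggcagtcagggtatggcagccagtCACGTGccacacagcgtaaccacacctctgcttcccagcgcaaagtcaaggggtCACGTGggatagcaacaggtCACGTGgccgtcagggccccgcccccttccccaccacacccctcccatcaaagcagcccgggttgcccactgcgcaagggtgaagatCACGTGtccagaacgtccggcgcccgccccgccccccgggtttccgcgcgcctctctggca
An E-box was found in 7.15% of the 32851 promoters, and 8 of them (0.0244%) held 4 or more. *Cdk4* measured 106, 102, 95.4 and 97.2 CPM in the WT(ND) mice and 109.6, 92.2, 98.1 and 104 CPM in the *Glis3*-Pax8Cre(ND) mice. On LID it measured 115, 108, 111 and 114 CPM in the WT(LID) mice and 117, 138, 119 and 137 CPM in the *Glis3*-Pax8Cre(LID) mice. The *Glis3*-Pax8Cre(LID) mice lay above all other mice and the ND groups overlapped. LID raised *Cdk4* in *Glis3*-Pax8Cre mice by 0.34 ± 0.0751 on the log2 scale (adjusted p = 0.00425), from 101 ± 7.46 to 128 ± 11.3 CPM. The WT diet value was 0.16 (adjusted p = 0.101) and the interaction 0.18 (adjusted p = 0.299). The former passed in 1 of 27 alternatives, the fit of only the 8 mice, at 0.16 (adjusted p = 0.0387), and ran from 0.004 to 0.22 with adjusted p from 0.0387 to 0.98. Genotypes differed by 0.19 (adjusted p = 0.0696) on LID and by 0.01 (adjusted p = 0.957) on ND. The LID value passed the test without *Glis3*-Pax8Cre(LID) replicate 1, at 0.23 (adjusted p = 0.0418), by DESeq2, at 0.19 (adjusted p = 0.0423), and with library size alone, at 0.34 (adjusted p = 0.0175), and over the 27 alternatives its adjusted p ran from 0.0175 to 0.264. The *Glis3*-Pax8Cre diet call was lost with library size alone as the scale, at 0.20 (adjusted p = 0.143), and in the paired fit of the 8 mice with a replicate block, at 0.33 (adjusted p = 0.0785), and over the 27 alternatives its adjusted p ran from 8.79e-05 to 0.143.

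*Cdk6* encodes the second D-cyclin kinase and lies at chr5:3343893-3531005 in mm10, plus strand. Its level was 66.4, 59.7, 21.5 and 66.0 CPM in the WT(ND) mice and 13.1, 16.7, 15.7 and 36.0 CPM in the *Glis3*-Pax8Cre(ND) mice. On LID it was 24.3, 27.4, 30.4 and 28.3 CPM in the WT(LID) mice and 17.8, 18.4, 16.7 and 20.04 CPM in the *Glis3*-Pax8Cre(LID) mice. *Cdk6* was highest in 3 of the 4 WT(ND) mice, while replicate 3 of that group lay below *Glis3*-Pax8Cre(ND) replicate 4, so that these groups overlapped. The *Glis3*-Pax8Cre(LID) mice lay below the WT(LID) mice without overlap. On ND *Cdk6* was lower in *Glis3*-Pax8Cre mice, at -1.38 ± 0.332 on the log2 scale (adjusted p = 0.0104), 53.4 ± 21.5 against 20.4 ± 10.5 CPM. It was -1.63 (adjusted p = 0.000366) without WT(ND) replicate 3, -1.80 (adjusted p = 0.00103) without *Glis3*-Pax8Cre(ND) replicate 4 and -2.06 (adjusted p = 1.04e-08) without both. Leaving out each library in turn was planned. Singling out those 2 libraries, and leaving out both, was chosen after seeing the values, so these p-values are descriptions. The call held in 25 of 27 alternatives, with adjusted p from 1.04e-08 to 0.0879, and was lost in the fits to only the 8 mice.

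On LID the genotype difference in *Cdk6* was -0.60 (adjusted p = 0.192), and it passed the test in 3 of 27 alternatives at about the same size. These were the fit without both libraries, at -0.61 (adjusted p = 0.000105), the fit to only the 8 mice, at -0.60 (adjusted p = 0.000663), and the same with a replicate block, at -0.60 (adjusted p = 0.0041). Over the 27 alternatives this value ran from -0.66 to -0.45 and its adjusted p from 0.000105 to 0.323. The interaction was 0.79 (adjusted p = 0.303). It was 1.03 (adjusted p = 0.0688) without WT(ND) replicate 3 and 1.19 (adjusted p = 0.0527) without *Glis3*-Pax8Cre(ND) replicate 4. Without both libraries the interaction was 1.45 (adjusted p = 9.15e-06), while over the 25 alternatives its adjusted p ran from 9.15e-06 to 0.449. LID lowered *Cdk6* in WT mice by 0.95 ± 0.328 (adjusted p = 0.0307), and the value in *Glis3*-Pax8Cre mice was -0.17 (adjusted p = 0.742), or 0.25 (adjusted p = 0.546) without *Glis3*-Pax8Cre(ND) replicate 4. The WT call passed in 18 of 27 alternatives. It was lost without WT(ND) replicate 1 (-0.82), 2 (-0.89) or 4 (-0.83), and without WT(LID) replicate 1 (-0.89), 2 (-0.94), 3 (-0.99) or 4 (-0.96). It was lost too with a replicate block on the 8 mice (-0.85) and with the 5 mice over 5 CPM of *Rag1* left out (-0.72). The value was -1.21 (adjusted p = 0.00171) without WT(ND) replicate 3, -0.94 (adjusted p = 0.00758) without *Glis3*-Pax8Cre(ND) replicate 4 and -1.20 (adjusted p = 2.06e-07) without both. Adjusted p for this WT response ran from 2.06e-07 to 0.131 over the 27 alternatives.

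*Cdkn1a*, at chr17:29090979-29100722 in mm10, plus strand, encodes p21, a CDK inhibitor and a classical target of p53. Its promoter is shown because the window printed here held a p53 site, and other p53 targets are described further on. The other *Cdkn1a* window, chr17:29093519-29093818, held 0 such sites and 2 GC boxes. Capitals mark 1 match to the full p53 site of 20 bases with at most 1 mismatch, in the window chr17:29090729-29091028, plus strand, GRCm38.p6.
Cdkn1a: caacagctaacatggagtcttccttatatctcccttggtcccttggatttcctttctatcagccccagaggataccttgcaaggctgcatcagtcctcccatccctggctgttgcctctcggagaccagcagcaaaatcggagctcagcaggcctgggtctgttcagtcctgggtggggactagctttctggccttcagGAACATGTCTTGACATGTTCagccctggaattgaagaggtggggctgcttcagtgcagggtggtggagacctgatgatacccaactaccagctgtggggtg
Such a site was found in 29 of the 32851 promoters (0.0883%). *Cdkn1a* measured 33.1, 36.8, 29.7 and 23.3 CPM in the WT(ND) mice and 30.1, 31.2, 38.0 and 21.2 CPM in the *Glis3*-Pax8Cre(ND) mice. On LID it measured 50.4, 73.3, 69.8 and 62.4 CPM in the WT(LID) mice and 34.6, 94.6, 65.1 and 40.9 CPM in the *Glis3*-Pax8Cre(LID) mice. The WT groups did not overlap, and the *Glis3*-Pax8Cre(LID) mice spread from within the ND range to the highest level of all 16, in replicate 2. LID raised *Cdkn1a* in WT mice from 30.7 ± 5.70 to 64.0 ± 10.1 CPM, by 1.06 ± 0.274 on the log2 scale (adjusted p = 0.00634), in all 27 alternatives. In *Glis3*-Pax8Cre mice it rose by 0.97 ± 0.274 (adjusted p = 0.0192). That call was lost without *Glis3*-Pax8Cre(ND) replicate 4, at 0.82 (adjusted p = 0.0503), *Glis3*-Pax8Cre(LID) replicate 2, at 0.64 (adjusted p = 0.0645), or *Glis3*-Pax8Cre(LID) replicate 3, at 0.90 (adjusted p = 0.0505). It was lost too with only the 8 mice, at 0.95 (adjusted p = 0.0882), without both libraries that stood apart, at 0.82 (adjusted p = 0.063), and without the 5 mice over 5 CPM of *Rag1*, at 0.97 (adjusted p = 0.0501), and passed in 21 of 27 alternatives. Over the 27 alternatives its adjusted p ran from 0.00235 to 0.0882. The genotypes differed by -0.12 (adjusted p = 0.788) on LID and -0.03 (adjusted p = 0.958) on ND, and the interaction was -0.09 (adjusted p = 0.909).

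*Cdkn1b*, at chr6:134920401-134925525 in mm10, plus strand, encodes p27, which holds CDK2 inactive in resting cells. Its promoter is shown because *Cdkn1b* moved in opposite directions to *Ccnd1* in 2 comparisons. Capitals mark 3 CCAAT boxes, the letters CCAAT on either strand, in the window chr6:134920151-134920450, plus strand, GRCm38.p6.
Cdkn1b: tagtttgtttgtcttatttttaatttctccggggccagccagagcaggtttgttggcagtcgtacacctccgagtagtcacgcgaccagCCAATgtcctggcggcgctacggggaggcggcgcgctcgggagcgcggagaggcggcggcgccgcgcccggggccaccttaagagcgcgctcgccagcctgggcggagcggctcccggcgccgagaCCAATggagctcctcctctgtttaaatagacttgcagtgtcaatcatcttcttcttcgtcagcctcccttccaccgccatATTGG
A CCAAT box was found in 37.4% of the 32851 promoters. *Cdkn1b* measured 70.2, 64.6, 66.5 and 68.7 CPM in the WT(ND) mice and 53.6, 65.5, 61.0 and 90.7 CPM in the *Glis3*-Pax8Cre(ND) mice. On LID it measured 56.1, 51.9, 51.0 and 48.0 CPM in the WT(LID) mice and 76.0, 69.9, 68.5 and 80.9 CPM in the *Glis3*-Pax8Cre(LID) mice. The WT(LID) mice lay below both the WT(ND) and the *Glis3*-Pax8Cre(LID) mice without overlap, and *Glis3*-Pax8Cre(ND) replicate 4 was the highest of all 16. On LID *Cdkn1b* was higher in *Glis3*-Pax8Cre mice, 73.8 ± 5.75 against 51.8 ± 3.35 CPM, a log2 fold change of 0.51 ± 0.122 (adjusted p = 0.005) called in all 27 alternatives. The ND difference was 0.01 (adjusted p = 0.982). LID lowered *Cdkn1b* in WT mice by 0.38 ± 0.122 (adjusted p = 0.0198), a call lost without WT(LID) replicate 4, at -0.35 (adjusted p = 0.0601). The *Glis3*-Pax8Cre diet value was 0.12 (adjusted p = 0.487) and the interaction 0.51 (adjusted p = 0.071). With *Glis3*-Pax8Cre(ND) replicate 4 left out these were 0.29 (adjusted p = 0.0163) and 0.66 (adjusted p = 0.00104), both past the test. The interaction passed in 4 of 25 alternatives, DESeq2 among them. Over the alternatives the adjusted p ran from 0.000796 to 0.0601 for the WT diet response, 0.0163 to 0.955 for the *Glis3*-Pax8Cre one and 0.00104 to 0.136 for the interaction.

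*Cdkn1c*, at chr7:143458339-143461050 in mm10, minus strand, encodes p57 and is an imprinted gene expressed mainly from the maternal allele. Its level was 6.73, 7.53, 7.04 and 6.74 CPM in the WT(ND) mice and 10.8, 9.63, 7.48 and 6.82 CPM in the *Glis3*-Pax8Cre(ND) mice. On LID it was 4.08, 4.45, 4.01 and 6.09 CPM in the WT(LID) mice and 11.6, 10.7, 7.49 and 10.2 CPM in the *Glis3*-Pax8Cre(LID) mice. The 4 WT(LID) mice were the lowest of the 16 and every *Glis3*-Pax8Cre(LID) mouse lay above them, while the ND groups overlapped. On LID *Cdkn1c* was higher in *Glis3*-Pax8Cre mice, 10.01 ± 1.78 against 4.66 ± 0.975 CPM, a log2 fold change of 1.10 ± 0.175 (adjusted p = 0.000206) called in all 27 alternatives. LID lowered it in WT mice by 0.59 ± 0.174 (adjusted p = 0.0129), and this call was lost with the 5 mice over 5 CPM of *Rag1* left out, at -0.50 (adjusted p = 0.103). The ND genotype difference was 0.30 (adjusted p = 0.232) and the *Glis3*-Pax8Cre diet value 0.21 (adjusted p = 0.395). The interaction of 0.80 ± 0.245 (adjusted p = 0.0456) was close to the threshold and passed it in 8 of 25 alternatives, with values from 0.60 to 0.95 and adjusted p from 0.0147 to 0.284. Leaving out any 1 of 13 libraries ended that call. The value was 0.80 without replicate 1, 0.76 without replicate 2, 0.78 without replicate 3 and 0.80 without replicate 4 of the WT(ND) mice. The value was 0.86 without replicate 2, 0.73 without replicate 3 and 0.69 without replicate 4 of the *Glis3*-Pax8Cre(ND) mice. The value was 0.72 without replicate 1, 0.76 without replicate 2 and 0.72 without replicate 3 of the WT(LID) mice. The value was 0.72 without replicate 1, 0.76 without replicate 2 and 0.79 without replicate 4 of the *Glis3*-Pax8Cre(LID) mice.

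**Figure D3:**
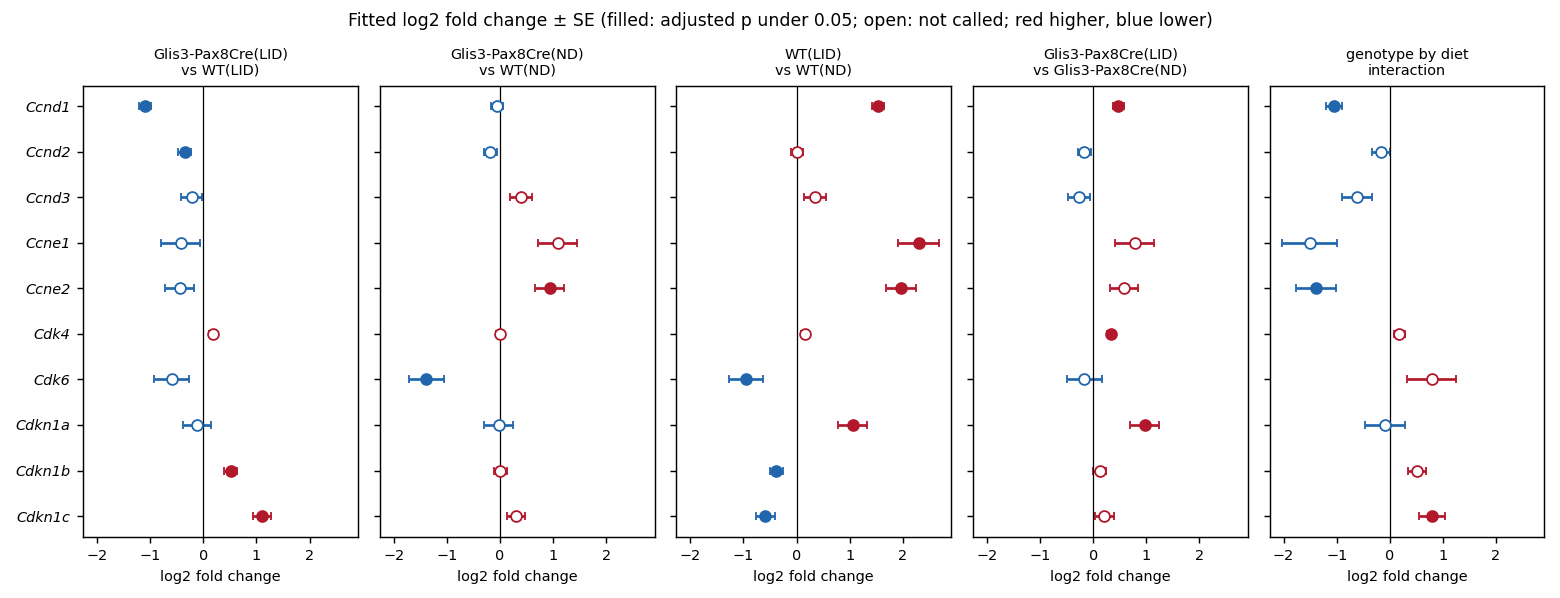
Fitted log2 fold change of each of the 10 genes with its SE (horizontal axes) in the 4 pairwise comparisons and the genotype by diet interaction, filled where the adjusted p was under 0.05. *Ccnd1*, *Cdkn1b* and *Cdkn1c* lay on opposite sides of 0 in the WT diet response (1.52, -0.38 and -0.59) and in the LID genotype comparison (-1.10, 0.51 and 1.10).

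Levels of different genes were compared per exonic length, in CPM per kb (mean ± SD, n = 4). In WT(ND) mice *Ccnd2* was highest at 60.2 ± 6.99, followed by *Cdk4* at 48.8 ± 2.41 and *Ccnd3* at 47.7 ± 4.15, with overlapping ranges among the 3. Without WT(ND) replicate 3 *Ccnd2* lay above the other 2. *Cdkn1b* at 28.2 ± 1.03 and *Ccnd1* at 26.4 ± 3.87 came next, again with overlapping ranges, ahead of *Cdkn1a* at 15.1 ± 2.80. *Cdk6* at 4.63 ± 1.86, *Cdkn1c* at 3.61 ± 0.192, *Ccne1* at 0.977 ± 0.291 and *Ccne2* at 0.695 ± 0.0368 were the lowest, and of these *Cdk6* and *Cdkn1c* overlapped, though not without replicate 3 (*Cdk6* at 5.55 ± 0.325). In WT(LID) mice *Ccnd1* came first at 76.0 ± 4.85, above *Ccnd3* at 60.8 ± 3.15 and *Ccnd2* at 60.4 ± 4.32, which overlapped each other. *Cdk4* at 54.6 ± 1.52, *Cdkn1a* at 31.4 ± 4.97 and *Cdkn1b* at 21.6 ± 1.40 followed, none overlapping its neighbour among these 3. In *Glis3*-Pax8Cre(LID) mice *Ccnd1*, at 35.5 ± 4.16, came after *Cdk4* at 62.2 ± 5.49, *Ccnd3* at 52.2 ± 6.26 and *Ccnd2* at 47.3 ± 8.29, each overlapping the next. *Ccnd1* overlapped *Cdkn1b* there too, at 30.8 ± 2.40.

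The share of each gene in its family was taken on this per-length scale, as a description with no test. *Ccnd1* made up 19.7% of the D-cyclin sum in WT(ND) mice and 18.6% in *Glis3*-Pax8Cre(ND) mice, with overlapping ranges. Its share was 38.5% in WT(LID) mice and 26.3% in *Glis3*-Pax8Cre(LID) mice, each apart from the other 3 groups. The D-cyclin sum was 134 ± 8.54 CPM per kb in WT(ND) and 141 ± 23.5 in *Glis3*-Pax8Cre(ND) mice, against 197 ± 8.54 for WT(LID) mice and 135 ± 11.9 for *Glis3*-Pax8Cre(LID) mice. The 4 *Glis3*-Pax8Cre(ND) mice had 131, 134, 124 and 176, with replicate 4 the highest. The E-cyclin sum was 1.67 ± 0.295 and 3.40 ± 2.35 CPM per kb in the WT(ND) and *Glis3*-Pax8Cre(ND) mice, 7.54 ± 0.337 for WT(LID) mice and 5.58 ± 0.939 for *Glis3*-Pax8Cre(LID) mice. In the *Glis3*-Pax8Cre(ND) mice it was 2.01, 2.05, 2.62 and 6.90 CPM per kb, so that replicate 4 lay far above the other 3, whose sum was 2.23 ± 0.341. *Ccne1* made up 57.6% and 59.7% of it in the WT(ND) and *Glis3*-Pax8Cre(ND) mice, and 63.9% and 63.5% in the WT(LID) and *Glis3*-Pax8Cre(LID) mice, the 4 ranges overlapping. *Cdk4* made up 91.5% of the 2 kinases in WT(ND) mice (89.9% without replicate 3) and 97.5% in *Glis3*-Pax8Cre(LID) mice. Among the Cip/Kip inhibitors *Cdkn1b* held the largest share in WT(ND) mice at 60.3%, and *Cdkn1a* in WT(LID) mice at 56.4%. In *Glis3*-Pax8Cre(LID) mice *Cdkn1b* stood at 48.9% and *Cdkn1a* at 43.0%. *Cdkn1c* was 4.35% of the inhibitors for WT(LID) mice and 8.14% for *Glis3*-Pax8Cre(LID) mice.

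**Figure D4:**
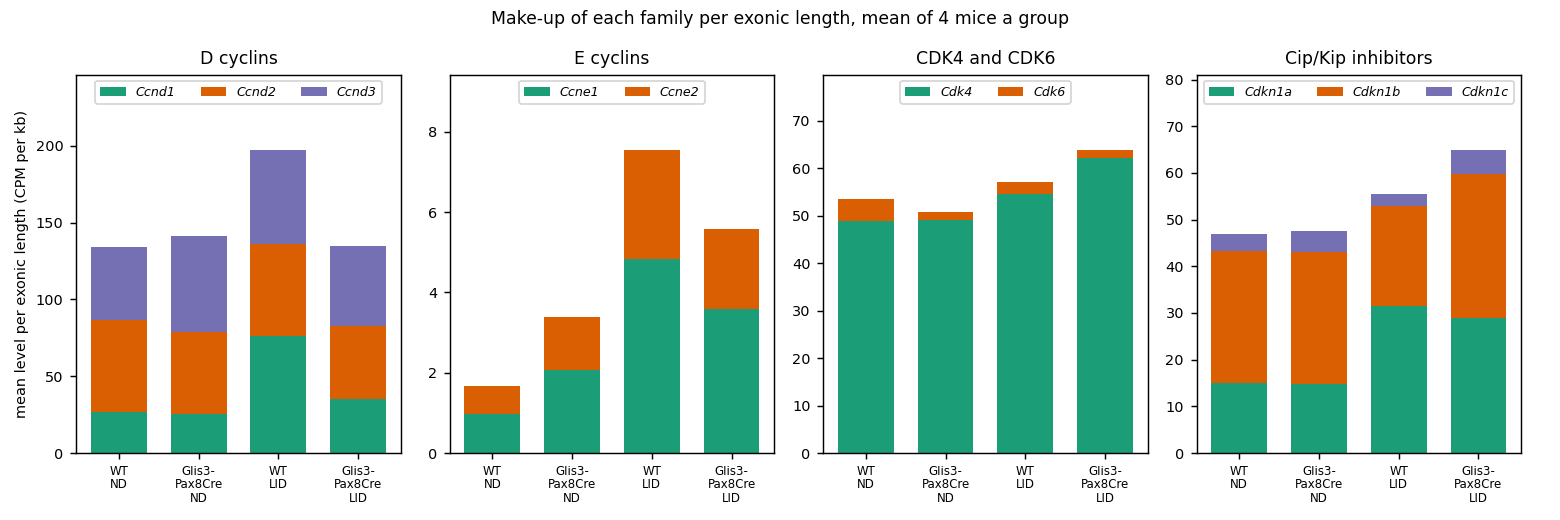
Mean level per exonic length in CPM per kb (vertical axes, from 0) of each gene, stacked within its family, for the 4 groups of 4 mice. The *Ccnd1* portion of the D cyclins was 26.4 CPM per kb in WT(ND) mice, 76.0 for WT(LID) mice and 35.5 for Glis3-Pax8Cre(LID) mice.

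For the 3 genes with the smallest p across the 4 groups, the genes of most similar pattern over the 16 mice were listed by root mean square difference in centred log2 CPM, among 11675 genes. *Ccnd1* was most like *Celsr1* (0.163), *Kirrel* (0.189) and *Tmem184b* (0.192). Their mean levels in the WT(LID) mice were 803, 27.2 and 224 CPM, against 359, 11.6 and 106 CPM in the *Glis3*-Pax8Cre(LID) mice. *Ccne2* was most like *Brip1* (0.149), *Atad2* (0.206) and *Ncapg2* (0.211), which act in DNA repair, chromatin and chromosome condensation. *Cdkn1c* was most like *Zfp105* (0.223), *Bnip3* (0.227) and *Fkbp4* (0.238). These are descriptions with no test.

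The genes that act around the 10 were described as lists by counts and medians. Of the 4 INK4 inhibitors, which bind CDK4 and CDK6 directly, 3 rose with LID in WT mice, beside 20.9% of all genes. *Cdkn2c* (p18) rose by 0.89 (adjusted p = 0.00032) and *Cdkn2d* (p19) by 1.23 (adjusted p = 0.00721), in all 27 alternatives. The same diet raised 1 of 4 in *Glis3*-Pax8Cre mice, beside 13.1% of all genes, *Cdkn2c* by 0.81 (adjusted p = 0.00171). On LID 2 of 4 were lower in *Glis3*-Pax8Cre mice, beside 15.4% of all genes, among them *Cdkn2b* (p15) at -0.75 (adjusted p = 0.0103), or -0.65 (adjusted p = 0.0644) with the 5 mice over 5 CPM of *Rag1* left out. The list medians were 1.06 for the WT diet response, 0.59 for the *Glis3*-Pax8Cre one and -0.36 for the LID genotypes, beside -0.03, -0.03 and 0.01 over all genes. On ND edgeR called 0 of 4, with 1 at unadjusted p under 0.05 and 0 by DESeq2, and *Cdkn2c* was at 0.10 (adjusted p = 0.682). Without *Glis3*-Pax8Cre(ND) replicate 1 that comparison called 2 lower, and without that library or replicate 4 the *Glis3*-Pax8Cre diet response called 2 higher.

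*Cdk2*, the kinase partner of the E-type cyclins, measured 33.1, 32.6, 33.4 and 32.2 CPM in the WT(ND) mice and 27.5, 30.5, 27.9 and 52.4 CPM in the *Glis3*-Pax8Cre(ND) mice. It measured 49.2, 50.8, 47.2 and 49.7 CPM in the WT(LID) mice and 33.3, 31.6, 33.3 and 42.2 CPM in the *Glis3*-Pax8Cre(LID) mice, the WT(LID) mice lying above the *Glis3*-Pax8Cre(LID) mice. LID raised it in WT mice by 0.58 (adjusted p = 0.00917), or 0.43 (adjusted p = 0.0644) with library size alone as the scale, and it was lower in *Glis3*-Pax8Cre mice on LID at -0.49 (adjusted p = 0.0332). Leaving out any 1 of 7 of the 8 LID mice ended the latter call, with values from -0.51 to -0.44, and the one whose removal kept it was *Glis3*-Pax8Cre(LID) replicate 4. Library size alone ended it too, at -0.34 (adjusted p = 0.157). Over all 27 alternatives the value ran from -0.61 to -0.34 and the adjusted p from 0.000158 to 0.157. With *Cdk7*, *Ccnh*, *Mnat1* and *Cdc25a*, which activate CDKs, 2 of 5 genes rose with LID in WT mice, beside 20.9% of all genes, *Cdc25a* by 0.56 (adjusted p = 0.00623), and with library size alone 1 was called higher and 2 lower. *Rb1*, which encodes RB, measured 32.5, 37.5, 37.1 and 34.0 CPM in the WT(LID) mice and 24.9, 21.3, 25.2 and 21.7 CPM in the *Glis3*-Pax8Cre(LID) mice, without overlap. It was lower in *Glis3*-Pax8Cre mice on LID, at -0.60 (adjusted p = 0.0425), a call lost with library size alone, at -0.45. It was also lost without any 1 of the 8 LID mice, at values from -0.64 to -0.56. Over all 27 alternatives the *Rb1* value ran from -0.64 to -0.45 and the adjusted p from 0.000107 to 0.127.

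*E2f1*, whose product is released when RB is phosphorylated, measured 5.09, 4.90, 5.65 and 5.93 CPM in the WT(ND) mice and 5.83, 5.53, 7.59 and 11.9 CPM in the *Glis3*-Pax8Cre(ND) mice. On LID it measured 20.4, 20.3, 20.9 and 24.1 CPM in the WT(LID) mice and 10.7, 15.5, 15.2 and 14.6 CPM in the *Glis3*-Pax8Cre(LID) mice, which did not overlap. Of the 10 E2F and DP factors, 5 rose with LID in WT mice, beside 20.9% of all genes, and 6 without *Glis3*-Pax8Cre(ND) replicate 4. The count was 4 without WT(ND) replicate 1 or WT(LID) replicate 4, and library size alone gave 4 higher and 1 lower. *E2f1* rose by 1.99 (adjusted p = 2.29e-06), and the repressor genes *E2f7* and *E2f8* by 2.49 (adjusted p = 5.92e-07) and 2.51 (adjusted p = 0.00166). In *Glis3*-Pax8Cre mice *E2f1* rose by 0.85 (adjusted p = 0.00584), the interaction being -1.13 (adjusted p = 0.0149), or -0.77 (adjusted p = 0.0871) with the 5 mice over 5 CPM of *Rag1* left out. *E2f7* was higher in *Glis3*-Pax8Cre mice on ND by 1.87 (adjusted p = 6.11e-05), with an interaction of -1.98 (adjusted p = 0.000487), both called in every alternative. Genotypes on LID differed in 2 of the 10, both lower and both lost with library size alone, where 0 were called lower and 1 higher. The fit without *Glis3*-Pax8Cre(ND) replicate 4 called 1 higher and 2 lower. This share is near the 15.4% of all genes called lower. They were *E2f1* at -0.61 (adjusted p = 0.0268) and *E2f6* at -0.38 (adjusted p = 0.00135), or -0.47 (adjusted p = 0.0869) and -0.24 (adjusted p = 0.0712) with that scale. The *E2f1* call was lost without WT(LID) replicate 4, at -0.55 (adjusted p = 0.0744), and also without *Glis3*-Pax8Cre(LID) replicate 1, at -0.51 (adjusted p = 0.082), and its adjusted p ran from 0.00138 to 0.0869 over the alternatives. Without *Glis3*-Pax8Cre(ND) replicate 4 the *Glis3*-Pax8Cre diet response called 4 of 10 higher in place of 1 (13.1% of all genes), and library size alone gave 1 higher and 2 lower. On ND 3 of 10 were called higher, beside 10.3% of all genes, 1 without any single WT(ND) mouse, 2 without *Glis3*-Pax8Cre(ND) replicate 4, and 5 without *Glis3*-Pax8Cre(ND) replicate 1 or with library size alone.

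Of 14 S-phase and proliferation genes that E2F factors switch on, all 14 rose with LID in WT mice (beside 20.9% of all genes; median 1.54, beside -0.03), in every edgeR alternative, and 10 by DESeq2, which gave no adjusted p for the other 4 (*Ccna2*, *Mki67*, *Rrm2* and *Top2a*). *Ccna2*, the cyclin of S phase, rose by 3.04 (adjusted p = 0.000237), and *Mki67*, the gene of the Ki-67 proliferation antigen, by 3.06 (adjusted p = 0.00152). *Mki67* measured 30.6, 29.0, 13.3 and 26.9 CPM in the WT(ND) mice and 187, 208, 229.5 and 207 CPM in the WT(LID) mice. It measured 25.3, 38.6, 35.1 and 248 CPM in the *Glis3*-Pax8Cre(ND) mice and 167, 210.3, 248 and 248 CPM in the *Glis3*-Pax8Cre(LID) mice. Replicate 4 of the *Glis3*-Pax8Cre(ND) mice thus had the level of the LID groups, and the 2 LID groups overlapped. LID raised in *Glis3*-Pax8Cre mice 1 of 14 (*Tyms*), beside 13.1% of all genes, 14 of 14 without *Glis3*-Pax8Cre(ND) replicate 4, and 0 with library size alone or without *Glis3*-Pax8Cre(ND) replicate 1, 2 or 3 or *Glis3*-Pax8Cre(LID) replicate 2 or 3. Genotypes on LID differed in 0 of 14 by edgeR, with 0 at unadjusted p under 0.05, and *Mki67* was at 0.07 (adjusted p = 0.945). DESeq2 called 0 as well, but gave no adjusted p for *Mki67*, here or in the interaction, so its counts leave that gene out. The fit called 7 of the 14 lower in *Glis3*-Pax8Cre mice on LID once *Glis3*-Pax8Cre(ND) replicate 4 was left out. The interaction called 0 by edgeR, with 13 at unadjusted p under 0.05 and 5 by DESeq2, all lower, and 6 without *Glis3*-Pax8Cre(ND) replicate 4.

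On ND 5 of these 14 were called higher in *Glis3*-Pax8Cre mice, beside 10.3% of all genes, *Ccna2* at 1.63 (adjusted p = 0.0269) and *Mki67* at 1.80 (adjusted p = 0.0497). They were, without *Glis3*-Pax8Cre(ND) replicate 4, 0.58 (adjusted p = 0.0132) and 0.42 (adjusted p = 0.233), with 4 of 14 called. Leaving out WT(ND) replicate 1, 2 or 4 left 1 call, leaving out its replicate 3 left 2, leaving out *Glis3*-Pax8Cre(ND) replicate 2 gave 9, and library size alone 7. With both libraries that stood apart, or the 5 mice over 5 CPM of *Rag1*, left out 3 were called. *Ccna2* measured 6.92, 8.41, 5.71 and 6.58 CPM in the WT(ND) mice and 10.5, 11.2, 8.96 and 54.0 CPM in the *Glis3*-Pax8Cre(ND) mice. All 4 *Glis3*-Pax8Cre(ND) mice were above all 4 WT(ND) mice in *Ccna2*, replicate 4 by far the most. Its call was lost without any 1 of the 4 WT(ND) mice, and that of *Mki67* without any of 15 of the 16 mice. Both calls were lost with only the 8 mice and with a replicate block, at 1.65 (adjusted p = 0.123) and 1.83 (adjusted p = 0.181) in the former. Adjusted p over the alternatives ran from 0.0132 to 0.264 for *Ccna2* and from 0.0202 to 0.386 for *Mki67*.

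The ubiquitin ligase subunits that mark G1 cyclins and inhibitors for destruction gave 4 of 12 higher and 3 lower with LID in WT mice, not far from the 20.9% and 20.8% of all genes, with a median of 0.04 beside -0.03. Without any 1 of 7 of the 8 WT mice 3 were called higher, the exception being WT(LID) replicate 3, and library size alone gave 3 higher and 4 lower. There were also 4 lower without *Glis3*-Pax8Cre(ND) replicate 4, WT(ND) replicate 2 or *Glis3*-Pax8Cre(LID) replicate 2. *Cks1b*, a cofactor of SKP2 in p27 breakdown, rose by 1.63 (adjusted p = 4.27e-06) and *Skp2* itself by 1.08 (adjusted p = 0.0153). *Fbxw7*, whose product targets cyclin E, fell by 0.74 (adjusted p = 0.000442). In *Glis3*-Pax8Cre mice 2 rose and 2 fell, *Cks1b* by 1.27 (adjusted p = 0.00013) and *Fbxw7* by -0.67 (adjusted p = 0.00218). The background was 13.1% and 12.3%. This response called 4 higher and 3 lower without *Glis3*-Pax8Cre(ND) replicate 4, and 1 higher and 3 lower with library size alone. Genotypes on LID gave 1 of 12 higher, beside 14.9% of all genes, *Cul1* at 0.27 (adjusted p = 0.00631), and 0 lower by edgeR, with 1 at unadjusted p under 0.05 and 1 by DESeq2. It gave 2 higher and 1 lower without *Glis3*-Pax8Cre(ND) replicate 4, and 1 lower without *Glis3*-Pax8Cre(ND) replicate 1, replicate 2 of WT(LID), or replicate 2 of *Glis3*-Pax8Cre(LID). Library size alone gave 4 higher. The *Cks1b*, *Fbxw7*, *Skp2* and *Cul1* calls named here held in all 27 alternatives.

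Beside *Cdkn1a*, 3 of 13 other p53 targets rose and 1 fell with LID in WT mice, with a median of 0.20 beside -0.03 over all genes. The share that rose is near the 20.9% of all genes, and with library size alone 1 of 13 rose. Without WT(ND) replicate 3, 2 fell. *Gdf15*, which encodes a stress-induced secreted factor, rose by 3.68 (adjusted p = 4.55e-07). In *Glis3*-Pax8Cre mice 5 of 13 rose and 0 fell by edgeR (0 at unadjusted p under 0.05, 0 by DESeq2), *Gdf15* by 2.73 (adjusted p = 2.05e-05), beside 13.1% and 12.3% of all genes. With library size alone 3 rose. Without *Glis3*-Pax8Cre(ND) replicate 4, 7 rose and 2 fell in WT mice and 8 rose in *Glis3*-Pax8Cre mice, where 3 rose without *Glis3*-Pax8Cre(LID) replicate 3. *Gdf15* measured 7.32, 9.05, 7.54 and 10.2 CPM in the WT(ND) mice and 67.8, 95.6, 106 and 168 CPM in the WT(LID) mice. It measured 13.2, 8.27, 8.26 and 7.53 CPM in the *Glis3*-Pax8Cre(ND) mice and 38.9, 84.4, 60.3 and 59.4 CPM in the *Glis3*-Pax8Cre(LID) mice. Both LID groups lay above both ND groups. Between genotypes on LID *Gdf15* was lower in *Glis3*-Pax8Cre mice, at -0.85 (adjusted p = 0.0278), a call that passed in 20 of 27 alternatives. In that comparison 2 of 13 targets were higher and 2 lower, beside 14.9% and 15.4% of all genes. Library size alone gave 5 higher and 0 lower, and leaving out 1 library gave 0 to 4 higher and 0 to 3 lower. *Bbc3*, which encodes the apoptosis factor PUMA, was lower in *Glis3*-Pax8Cre mice on ND, at -0.87 (adjusted p = 0.00232), a call lost with the 5 mice over 5 CPM of *Rag1* left out, at -0.77 (adjusted p = 0.0591).

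Among 12 imprinted growth genes other than *Cdkn1c*, 4 were higher and 1 lower in *Glis3*-Pax8Cre mice on LID, beside 14.9% and 15.4% of all genes, with a median of -0.03 beside 0.01. *Mest* measured 132, 130.4, 118 and 144 CPM in the WT(LID) mice and 698, 588, 665 and 1063 CPM in the *Glis3*-Pax8Cre(LID) mice. On ND it measured 81.2, 82.1, 94.5 and 47.7 CPM in the WT(ND) mice and 214, 163, 183 and 156 CPM in the *Glis3*-Pax8Cre(ND) mice. The genotypes did not overlap on either diet, and the log2 fold changes were 2.52 (adjusted p = 5.11e-07) on LID and 1.23 (adjusted p = 0.000832) on ND, with an interaction of 1.30 (adjusted p = 0.00745), or 0.87 (adjusted p = 0.12) with the 5 mice over 5 CPM of *Rag1* left out. *Phlda2*, a neighbour of *Cdkn1c* on chromosome 7 in the same imprinted domain, was higher on LID by 0.92 (adjusted p = 0.00481), and *Grb10* was lower, at -1.31 (adjusted p = 0.000161). The LID genotype calls of these 3 genes held in all 27 alternatives, and the count of lower genes was 2 without *Glis3*-Pax8Cre(ND) replicate 1 or 4 or *Glis3*-Pax8Cre(LID) replicate 1.

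**Figure D5:**
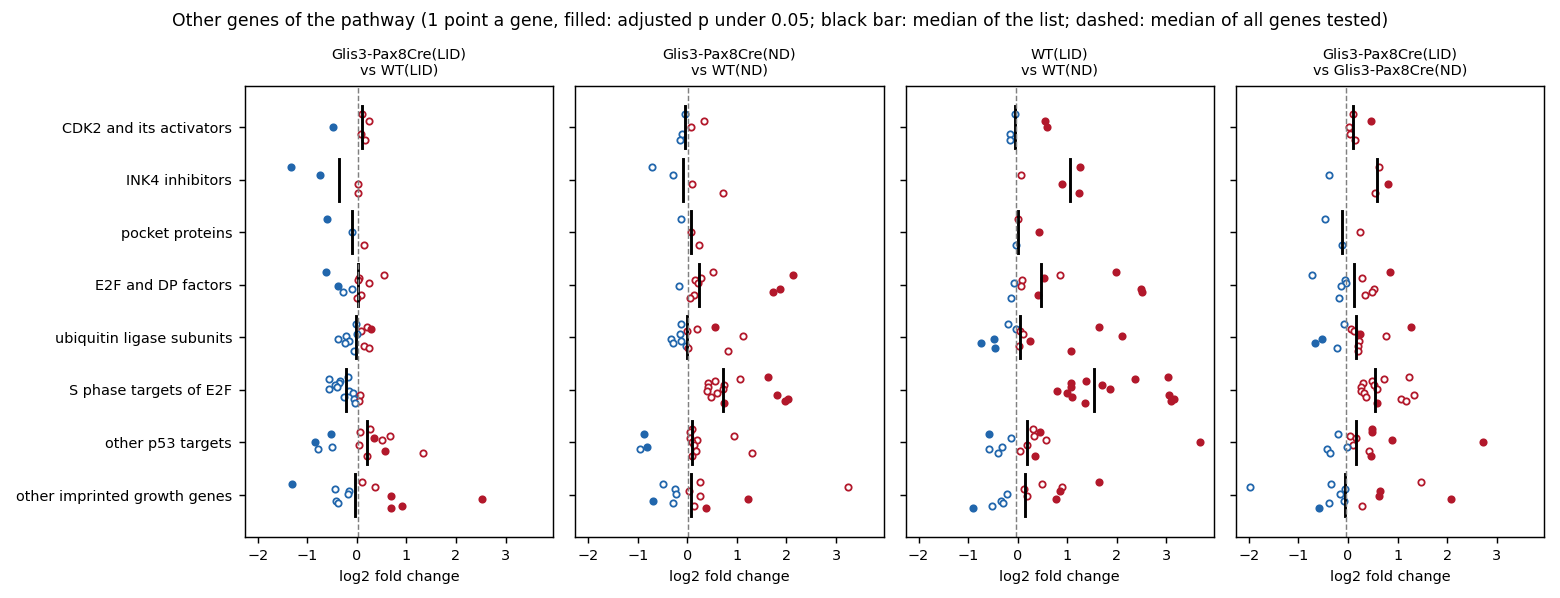
Log2 fold change (horizontal axes) of each gene of the 8 lists around the 10 genes in the 4 pairwise comparisons, with 1 point per gene, filled where the adjusted p was under 0.05, a black bar at the list median and a dashed line at the median of all genes tested. All 14 S-phase targets lay right of 0 in the WT diet response, with a median of 1.54.

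Markers of other cells are set here beside the 3 pairwise comparisons that called *Ccnd1*, all with LID mice. Of all genes, 20.9% rose and 20.8% fell with LID in WT mice, 13.1% and 12.3% in *Glis3*-Pax8Cre mice. Between genotypes 14.9% were higher and 15.4% lower on LID, 10.3% and 9.25% on ND, and the interaction called 7.41% lower. All 5 endothelial markers rose with LID in WT mice, and 4 of 5 were lower in *Glis3*-Pax8Cre mice on LID. Their summed level was 479, 459, 580 and 536 CPM in the WT(ND) mice and 621, 832, 682 and 598 CPM in the *Glis3*-Pax8Cre(ND) mice. On LID it was 1230, 1230, 1390 and 1300 CPM in the WT(LID) mice and 563, 675, 712 and 552 CPM in the *Glis3*-Pax8Cre(LID) mice, with *Kdr* the most abundant in 13 mice and *Pecam1* in WT(LID) replicates 1, 3 and 4. The WT(LID) mice had the highest endothelial levels of the 16, as they had of *Ccnd1*. With LID in *Glis3*-Pax8Cre mice, where *Ccnd1* rose as well, edgeR called 0 of 5 endothelial markers higher (0 at unadjusted p under 0.05, 0 by DESeq2) and 2 lower. On ND 2 of 5 were higher in *Glis3*-Pax8Cre mice, and the interaction called all 5 lower. Of 5 pericyte and smooth muscle markers, 4 rose with LID in WT mice and 4 were lower in *Glis3*-Pax8Cre mice on LID, while 1 rose with LID in *Glis3*-Pax8Cre mice and 1 was higher in them on ND. They summed to 361, 352, 449 and 431 CPM in the WT(ND) and 548, 638, 543 and 457 CPM in the *Glis3*-Pax8Cre(ND) mice. They summed to 825, 1020, 986 and 1250 CPM in the WT(LID) and 548, 639, 557 and 424 CPM in the *Glis3*-Pax8Cre(LID) mice, with *Rgs5* the most abundant in every mouse. The 5 fibroblast markers gave 2 higher and 2 lower with LID in WT mice, and 2 higher and 1 lower with LID in *Glis3*-Pax8Cre mice. Between genotypes 2 were lower in *Glis3*-Pax8Cre mice on LID and 2 on ND. DESeq2 called all 5 lower on ND, where edgeR had all 5 lower at unadjusted p under 0.05. They summed to 549, 742, 536 and 597 CPM in the WT(ND) and 507, 454, 347 and 249 CPM in the *Glis3*-Pax8Cre(ND) mice. They summed to 1120, 1060, 1190 and 1240 CPM in the WT(LID) and 604, 659, 570 and 366 CPM in the *Glis3*-Pax8Cre(LID) mice, with *Dcn* the most abundant in 7 ND mice, *Col1a1* in WT(LID) replicate 3 and *Col1a2* in the other 8. None of these markers was at 0 in any mouse. Without WT(ND) replicate 3, and again without *Glis3*-Pax8Cre(ND) replicate 4, 5 endothelial markers were called lower on LID and 3 higher on ND in *Glis3*-Pax8Cre mice, and the interaction called 3 pericyte and smooth muscle markers lower. Fibroblast markers without *Glis3*-Pax8Cre(ND) replicate 4 gave 3 lower on LID and 2 lower in the interaction, and the 2 ND calls were lost. Leaving out the 5 mice over 5 CPM of *Rag1* lost the ND calls of all 3 lists, and left 3 of 5 endothelial markers lower in the interaction and 3 of 5 pericyte and smooth muscle markers lower on LID. Their part in the values of the 10 genes was not tested.

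The remaining marker lists are given as counts called by edgeR, to be read beside the shares of all genes given with the counts of the 10. All 8 follicular markers were tested, and *Tg* was the most abundant in every mouse. Of these 8, *Glis3*-Pax8Cre mice had 4 higher and 2 lower on LID, and 2 higher and 2 lower on ND. The follicular sum, led by *Tg*, was 307000, 204000, 231000 and 295000 CPM in the WT(ND) and 126000, 186000, 174000 and 132000 CPM in the *Glis3*-Pax8Cre(ND) mice. On LID it was 240000, 331000, 306000 and 220000 CPM in the WT(LID) and 131000, 97900, 165000 and 117000 CPM in the *Glis3*-Pax8Cre(LID) mice. The sum was thus lower in *Glis3*-Pax8Cre mice on both diets, without overlap. LID raised 3 of the 8 and lowered 1 in WT mice, and raised 3 in *Glis3*-Pax8Cre mice. Macrophage markers were higher in *Glis3*-Pax8Cre mice for 5 of 5 on ND and 1 of 5 on LID, and LID raised 2 of 5 in WT and lowered 3 of 5 in *Glis3*-Pax8Cre mice. They summed to 121, 154, 180 and 125 CPM in the WT(ND) and 235, 246, 225 and 203 CPM in the *Glis3*-Pax8Cre(ND) mice, with no overlap. On LID they summed to 168, 171, 171 and 185 CPM in the WT(LID) and 186, 195, 193 and 148 CPM in the *Glis3*-Pax8Cre(LID) mice, which overlapped, and *Csf1r*, *C1qa* or *Mrc1* was the most abundant in each mouse. Adipocyte markers fell with LID in 4 of 5 for WT mice, and 2 of 5 were lower in *Glis3*-Pax8Cre mice on ND. On LID 1 was higher in *Glis3*-Pax8Cre mice, in which the diet raised 1. They summed to 677, 1580, 778 and 1300 CPM in the WT(ND), 796, 597, 447 and 405 CPM in the *Glis3*-Pax8Cre(ND), 608, 335, 344 and 444 CPM in the WT(LID) and 760, 850, 710 and 376 CPM in the *Glis3*-Pax8Cre(LID) mice, *Fabp4* leading in every mouse. Of the *Glis3*-Pax8Cre(LID) mice 3 lay above all WT(LID) mice. Parathyroid markers fell with LID in 3 of 3 for both genotypes, and C-cell markers in 2 of 3 for WT and 1 of 3 for *Glis3*-Pax8Cre mice. In *Glis3*-Pax8Cre mice 1 parathyroid marker was lower on LID and 1 C-cell marker on ND. The parathyroid sum was 3480, 5450, 6000 and 4980 CPM in the WT(ND) mice and 957, 858, 1680 and 1490 CPM in the WT(LID) mice. It was 5180, 3350, 3490 and 3290 CPM in the *Glis3*-Pax8Cre(ND) mice and 2100, 1730, 614 and 225 CPM in the *Glis3*-Pax8Cre(LID) mice, *Pth* leading in every mouse. Each LID group lay below its ND group. The C-cell sum was 7290, 7860, 9590 and 7340 CPM in the WT(ND) and 2340, 2340, 3680 and 2640 CPM in the WT(LID) mice. It was 5810, 5290, 4010 and 3360 CPM in the *Glis3*-Pax8Cre(ND) and 3210, 2920, 1580 and 1250 CPM in the *Glis3*-Pax8Cre(LID) mice, with *Chga* or *Calca* leading and 1 marker at 0 in *Glis3*-Pax8Cre(ND) replicate 1. The part of these cells in the values of the 10 genes was not tested either. Of 4 B-cell markers 1 was higher in *Glis3*-Pax8Cre mice on ND and 1 fell with LID in *Glis3*-Pax8Cre mice. Of 3 cartilage markers tested 1 was higher in *Glis3*-Pax8Cre mice on ND and 1 rose with LID in WT mice. The interaction called 2 follicular, 2 macrophage, 2 pericyte and smooth muscle and 1 cartilage marker lower, and 3 adipocyte markers higher. The follicular list gave, without WT(ND) replicate 3, 3 higher on ND and 4 higher with LID in *Glis3*-Pax8Cre mice and lost its lower call in WT. That fit also called 1 macrophage marker lower on LID and 4 in the interaction, left 2 parathyroid calls in each genotype, and lost the C-cell call of *Glis3*-Pax8Cre mice. The follicular list without *Glis3*-Pax8Cre(ND) replicate 4 gave 4 higher on ND and 4 with LID in *Glis3*-Pax8Cre mice, and 2 C-cell markers were lower on ND. Adipocyte markers then had 1 lower on ND, parathyroid markers fell in 2 of 3 for *Glis3*-Pax8Cre mice, and 2 cartilage markers rose in WT. The same fit lost both B-cell calls and the adipocyte call of the diet in *Glis3*-Pax8Cre mice. Skeletal muscle markers gave 0 of 5 in all comparisons, with 0 at unadjusted p under 0.05 and 0 by DESeq2. They summed to 2.21, 82.9, 367 and 2.10 CPM in the WT(ND) and 1240, 465, 1.6 and 368 CPM in the *Glis3*-Pax8Cre(ND) mice. On LID the sums were 1.55, 52.6, 983 and 98.2 CPM in the WT(LID) and 211, 821, 2.56 and 255 CPM in the *Glis3*-Pax8Cre(LID) mice. WT(ND) replicate 3, *Glis3*-Pax8Cre(ND) replicate 1, WT(LID) replicate 3 and *Glis3*-Pax8Cre(LID) replicate 2 were thus the highest of their groups, with *Acta1*, *Myh4* or *Mylpf* leading in each mouse and 0 markers at 0. The list median between genotypes on ND was 2.19, and the part of muscle RNA in the values of the 10 genes was not tested. The erythroid list had 1 of 5 genes tested (*Alas2*), not called in any comparison (0 at unadjusted p under 0.05, 0 by DESeq2), with the other 4, the globin genes, at 0 in all 16 mice.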

How the data were processed

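Per the labels, RNA of 16 thyroids was isolated with an RNAqueous-Micro kit, made into TruSeq libraries and sequenced on a NextSeq500 or a NovaSeq 6000, with the instrument of each library not stated. The authors kept pairs with an average base quality over 20, aligned them to mm10 with STAR 2.5, removed noncanonical splices and counted read pairs per RefSeq gene without regard to strand with featureCounts 1.5.0-p1; the deposited values are these counts. Counts ran from 13892352 to 461077969 read pairs a library, and the floors given with depth cover counting error only.

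Genes were filtered with filterByExpr (16630 of 25611 entries), scaled by TMM and fitted over the 16 mice with the robust quasi-likelihood fit of edgeR 4.0.16 in R 4.3.3 (limma 3.58.1), and adjusted p under 0.05 was a call. DESeq2 1.42.0 was an alternative, beside RLE factors, library size alone, *Tg* left out, no filter, at least 10 counts in every mouse, only the 8 mice of a comparison, a replicate block and each library left out. Figures used Python 3.11.15, pandas 2.3.3 and matplotlib 3.10.9. The scripts were tested on simulated data.

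The members and lists were chosen with earlier results of these data known. Named by rule were the members, *Glis3*, *Cdk2*, *E2f1*, *Rb1*, *Ccna2*, *Mki67* and, per list and comparison, up to 4 called genes of at least 1 CPM with the largest change, or the most abundant gene where none was called. The placing of each library between genotypes, the marker counts without libraries that stood apart, *Pax8*, *Slc5a5* and values of named genes in further comparisons were chosen after values were seen. Replicate numbers paired the *Glis3*-Pax8Cre mice across diets by the rule used (correlations of deviations from 0.21 to 0.65 over 4 pairs) and no other comparison, and the labels give no shared litter or day. No libraries were duplicates (lowest chi-square per degree of freedom 33 over 24 pairs). Marker lists were follicular, thymocyte, B cell, endothelial, fibroblast, pericyte and smooth muscle, macrophage, skeletal muscle, adipocyte, parathyroid, C cell, cartilage and erythroid.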

Additional observations from a re-analysis of the deposited data

Results flagged for a closer look

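Single values that lay far from the other mice of their group by Dixon's ratio were found in 6 of 40 gene and group sets, where chance alone gives about 1 in 20. *Ccnd1* was 120.3 CPM in WT(ND) replicate 4, the highest of that group. *Ccnd3* was 234.7 CPM in *Glis3*-Pax8Cre(ND) replicate 4. *Ccne1* was 2.816 CPM in WT(ND) replicate 4 and 8.778 CPM in *Glis3*-Pax8Cre(ND) replicate 4, each the highest of its group. *Cdk6* was 21.52 CPM in WT(ND) replicate 3, the lowest of its group, and 36.02 CPM in *Glis3*-Pax8Cre(ND) replicate 4, the highest of its group. The diet response differed between genotypes, with an adjusted p under 0.05, in *Ccnd1* at -1.05, *Ccne2* at -1.39 and *Cdkn1c* at 0.80 on the log2 scale. Of 25 alternatives the *Ccnd1* call held in 25, that of *Ccne2* in 22 and that of *Cdkn1c* in only 8.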

How the results depend on the processing

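With 4 mice a group, whole glands and no record of litter or instrument, small differences can be missed and cell numbers were not measured. Under the strict rule (adjusted p under 0.01 and fold over 2) the members called numbered 2 in *Glis3*-Pax8Cre(LID) against WT(LID), 0 in *Glis3*-Pax8Cre(ND) against WT(ND), 4 for diet in WT, 0 for diet in *Glis3*-Pax8Cre and 1 for the interaction. At adjusted p under 0.05 with no fold limit the interaction called 3 by edgeR and 5 by DESeq2. Between genotypes on ND 0 were called with only the 8 mice and 0 with a replicate block on them. A replicate block on all 16 mice changed no call of a member, and on the 8 mice of the paired *Glis3*-Pax8Cre diet comparison it ended only that of *Cdk4*. The same 8 mice without a block kept that call and lost that of *Cdkn1a*. In the other pairwise comparisons same-numbered mice did not pair (correlations from -0.52 to 0.14), and with the block on 8 mice the calls numbered 6 between genotypes on LID and 7 for diet in WT. The 2 sets left out below were chosen after seeing the data: the 2 libraries that stood apart, and the 5 mice with *Rag1* over 5 CPM. The ND genotypes kept 1 call in each, and diet in *Glis3*-Pax8Cre gave 5 without the 2 libraries. Leaving out 1 library gave 3 to 5 calls between genotypes on LID, 1 to 3 on ND, 5 to 8 for diet in WT, 2 to 5 in *Glis3*-Pax8Cre and 1 to 4 for the interaction. The all-gene medians of the 4 pairwise comparisons were 0.158, 0.143, -0.185 and -0.166 with library size alone, where TMM gave 0.012, 0.021, -0.028 and -0.033.

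Uncalled differences changed sign as follows, and the cause was not tested. On LID between genotypes *Cdkn1a* was 0.029 with library size alone, 0.062 without the *Rag1* mice and -0.448 to 0.066 with 1 library out, and *Glis3* -0.044 to 0.203. On ND between genotypes library size alone gave 0.073 for *Ccnd1*, 0.079 for *Cdkn1a* and 0.006 for *Cdk7*, and the replicate block -0.007 (16 mice) and -0.002 (8 mice) for *Cdkn1b*. Without the 2 libraries they were -0.023 for *Cdk4*, 0.105 for *Cdkn1a*, -0.167 for *Cdkn1b* and -0.097 for *Cdkn2c*, and without the *Rag1* mice 0.323 for *Cdkn1a*, -0.17 for *Cdkn1b* and -0.095 for *Cdkn2c*. With 1 library out *Ccnd1* ran from -0.102 to 0.069, *Cdk4* from -0.034 to 0.049, *Cdkn1a* from -0.161 to 0.119, *Cdkn1b* from -0.16 to 0.1 and *Cdkn2c* from -0.041 to 0.203. For diet in WT *Ccnd2* was -0.148 with library size alone, -0.053 without the 2 libraries and -0.055 to 0.078 with 1 out. For diet in *Glis3*-Pax8Cre *Cdkn1b* was -0.013 with library size alone. There *Ccnd3* was 0.087 without the 2 libraries, 0.016 without the *Rag1* mice and -0.401 to 0.087 with 1 out, and *Cdk6* 0.249, 0.21 and -0.32 to 0.25. In the interaction *Cdkn2c* was 0.107 without the 2 libraries, 0.082 without the *Rag1* mice and -0.188 to 0.051 with 1 out, *Cdkn1a* ran from -0.42 to 0.093 and *Rbl2* from -0.163 to 0.005.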
